A study of Mus musculus with 12 samples.

Results

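The cytosolic ribosomal protein genes are the genes that encode the protein subunits of the ribosome outside the mitochondria. They were taken by name from the deposited transcript table: genes whose symbol is Rpl or Rps with a number, with or without an a, x or l at its end, together with Rpsa, Rplp0, Rplp1 and Rplp2. Transcripts that match a reference transcript, are contained in it, share a splice junction with it or overlap its exons were kept, and their reads were summed per gene. This gave 86 genes of the 31766 genes and loci of the table, spread over 19 chromosomes. By symbol alone, 33 were counted to the small (Rps) and 53 to the large (Rpl) ribosomal subunit. The rule also takes in Rpl32l and Rps4l, which GENCODE lists as pseudogenes. Total RNA from whole testes of C57BL/6 mice, an inbred laboratory strain, was sequenced at 3, 6, 12 and 18 months of age (3M, 6M, 12M and 18M). Each age had 3 libraries, and each library came from a different mouse, so p-values describe the spread between mice. No genotype was altered and no treatment was given, and a single testis sample holds germ cells and somatic cells together. Fewer cells of a type and less RNA per cell therefore cannot be told apart in these data.

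The ribosome is built from ribosomal RNA and a set of proteins that are needed in matching amounts, and in mammals most of these proteins come from a single active gene that is strongly expressed in every cell. Their mRNAs begin with a C and a stretch of pyrimidines, the terminal oligopyrimidine motif, through which the mTOR pathway controls their translation. Male germ cells are a special case, since the X chromosome is silenced during meiosis, and some X-linked ribosomal protein genes have autosomal copies that are known to be expressed in testis. Rpl10l, a retrocopy of the X-linked Rpl10, is known to be required for spermatocytes to pass through meiosis in mice, and Rpl39l, a relative of the X-linked Rpl39, for normal sperm formation.

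Library totals in the deposited estimated counts ran from 50924104 to 71803379 reads. Reads of the ribosomal protein genes made up 0.926% to 1.11% of a library, and 2.58% to 2.86% of its summed FPKM, in which fragments are scaled to transcript length and library size. CPM here means reads scaled to library size after normalization. Between libraries of an age, log2 reads scaled to library size alone had a correlation of 0.989 to 0.991 across genes, and no pair held identical values. Markers of elongating spermatids were at a summed 27274 to 39265 FPKM and those of spermatocytes at 561 to 601 FPKM. Markers of epididymis and fat summed to 10.8 to 14.3 FPKM, with 4 of 10 under a mean of 0.1 FPKM and 1 of these at 0 in every library. The library of mouse 3 at 6M held the highest sum of Leydig cell markers, 1717 FPKM against 704 to 1176 in the others, the highest sum of Sertoli cell markers, 244 against 180 to 200, and the lowest sum of elongating spermatid markers. It also held the highest sums of macrophage markers, 50.5 FPKM against 30.0 to 42.2, and of peritubular and endothelial markers, 38.8 against 27.9 to 36.6. Lymphocyte markers were not highest there.

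Levels between genes were compared per length, as FPKM summed over the transcripts of a gene. The mean over the 12 libraries ran from 0.122 to 613 FPKM with a median of 114 FPKM, against 1.76 FPKM over all 29895 genes and loci with a value above 0. Of the 86 genes, 48 were above 100 FPKM. Rpl41, which encodes a very short basic peptide of the large subunit, had the highest level, 613 ± 41.7 FPKM (SD, n = 12), and ranged from 560 to 689 FPKM. It was followed by Rplp0 at 519 ± 19.4 FPKM and Rplp1 at 430 ± 30.5 FPKM, parts of the stalk that recruits elongation factors. Rpl32 at 367 ± 28.4 FPKM and Rps24 at 355 ± 20.8 FPKM, proteins of the large and the small subunit, came next. Their means differed by less than their SD, and they were not tested against each other. Small-subunit genes had a median of 111 FPKM and large-subunit genes of 116 FPKM.

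**Figure D1:**
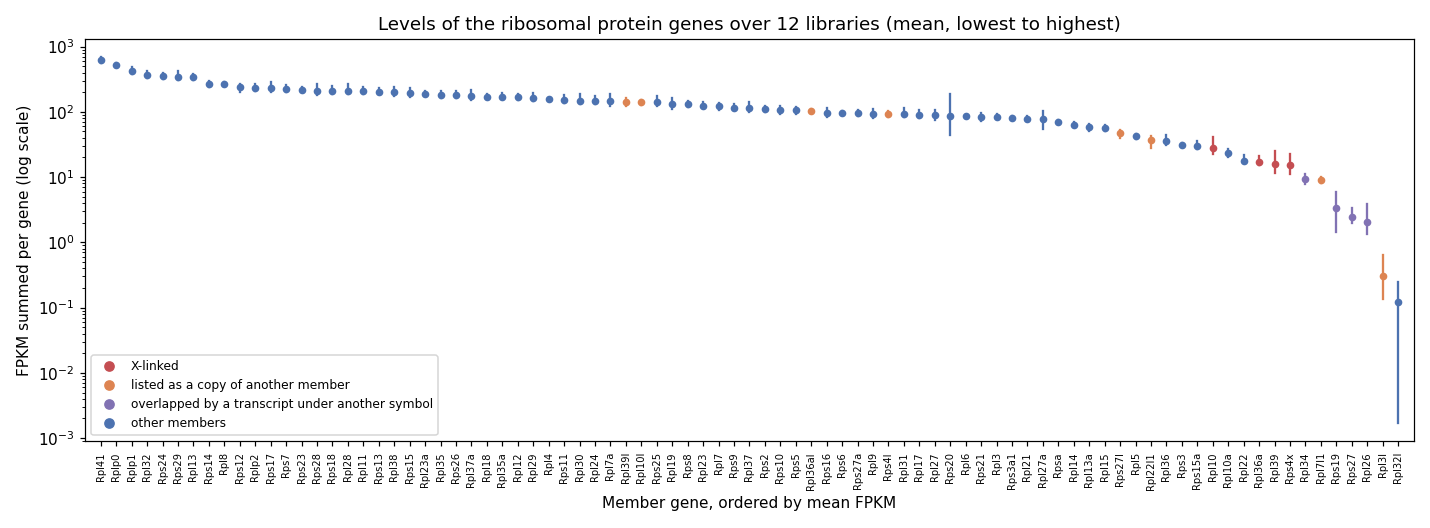
Levels of ribosomal protein genes as FPKM summed per gene on a log axis, ordered by mean, where a point is the mean and a line runs from the lowest to the highest of the 12 libraries. The X-linked genes (red) lie between 15.1 and 28.0 FPKM, and most autosomal genes lie above them, among them most copies of other members (orange). The copies Rpl3l and Rpl7l1 lie below, as do the genes overlapped by a transcript under another symbol (purple).

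The variation of these genes was taken over all 12 libraries, so it holds differences between ages as well as between mice. The coefficient of variation of CPM had a median of 7.13% and was under 10% for 73 of the 86 genes. No value of other genes of like read depth stands beside it here. Rps6, the small-subunit protein that S6 kinases phosphorylate, varied least, by 2.69%. In FPKM the median coefficient of variation was 7.91%. Rps20, a small-subunit protein, had the highest variation in FPKM of all genes with a mean over 10 FPKM, from 44.6 to 189 FPKM, while in CPM it varied by 16.2%. The table holds 2 transcripts of Rps20, between which its reads were divided.

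The lowest levels belonged to a few genes with different annotations. Rpl32l, a processed pseudogene by GENCODE, was at 0.122 ± 0.0831 FPKM and could not be tested, as it had a mean of 4.83 reads. Rpl3l, known as the form of Rpl3 in striated muscle, was at 0.306 ± 0.129 FPKM. Rpl26, a large-subunit gene, and Rps27 and Rps19, small-subunit genes, followed at 2.04 ± 0.772, 2.42 ± 0.421 and 3.40 ± 1.22 FPKM. These values were set beside the transcripts at the same place under other symbols. At Rpl26 (chr11:68901566-68904534), the table holds a transcript named Gm15772 with both ends within 100 bases, and it took a mean of 13211 reads against 66.8 for Rpl26, or 417 FPKM with a range of 365 to 509. At Rps27 (chr3:90212667-90213648), a transcript named Rps27rt took 4659 reads against 82.8, or 222 FPKM. At Rpl34 (chr3:130726827-130730398), a large-subunit gene at 9.31 ± 1.01 FPKM, a transcript named Rpl34-ps1 took 5030 reads against 317, or 200.5 FPKM. GENCODE places Rps27rt on chromosome 9, Gm15772 on chromosome 5 and Rpl34-ps1 on chromosome 6, each as a gene with a single exon. Rps19 (chr7:24884714-24889802) shares its 3′ end with an assembled transcript of 9578 nt under the symbol Dmrtc2, which took 7223 reads against 130 for Rps19. The fitted levels and changes of Rpl26, Rps27, Rpl34 and Rps19 therefore rest on a small share of the reads at their loci and are uncertain.

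All 4 X-linked members were low. Rpl10 (chrX:74270656-74273135), a large-subunit protein close to the peptidyl transferase center, was at 28.0 ± 5.17 FPKM (SD, n = 12). Rpl36a (chrX:134585654-134588062), another large-subunit protein, was at 17.2 ± 1.63 FPKM. Rpl39 (chrX:37082518-37085222), which lines the exit tunnel, was at 16.1 ± 3.30 FPKM, and Rps4x (chrX:102184941-102189521), a small-subunit protein, at 15.1 ± 3.06 FPKM. The ranges of the last 3 over the 12 libraries overlapped, and these genes were not tested against each other. Of the 73 autosomal genes that are not listed as copies of another member, 67 had a higher mean than Rpl10, the highest of the 4. The 6 that did not were Rpl10a, Rpl22, Rpl34, Rps19, Rps27 and Rpl26, of which the last 4 share their loci with the transcripts named above. These 6 were named after their values were seen.

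The autosomal copies stood several times above their X-linked relatives in every library. Rpl10l (chr12:66283379-66284401), a gene with a single exon, was at 140 ± 6.92 FPKM, between 3.34 and 6.42 times the level of Rpl10, with a median ratio of 5.03. Rpl36al (chr12:69182734-69184067) was at 103 ± 4.70 FPKM, or 4.92 to 7.07 times Rpl36a, with a median of 6.04. Rpl39l (chr16:10170228-10174911) was at 141 ± 12.3 FPKM, or 5.19 to 10.8 times Rpl39, with a median of 9.21. Rps4l (chr6:148354656-148355596), which GENCODE lists as a transcribed processed pseudogene, was at 92.7 ± 6.59 FPKM, or 3.996 to 8.79 times Rps4x, with a median of 6.18. The values of copy and X-linked gene did not overlap in any of these pairs.

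**Figure D2:**
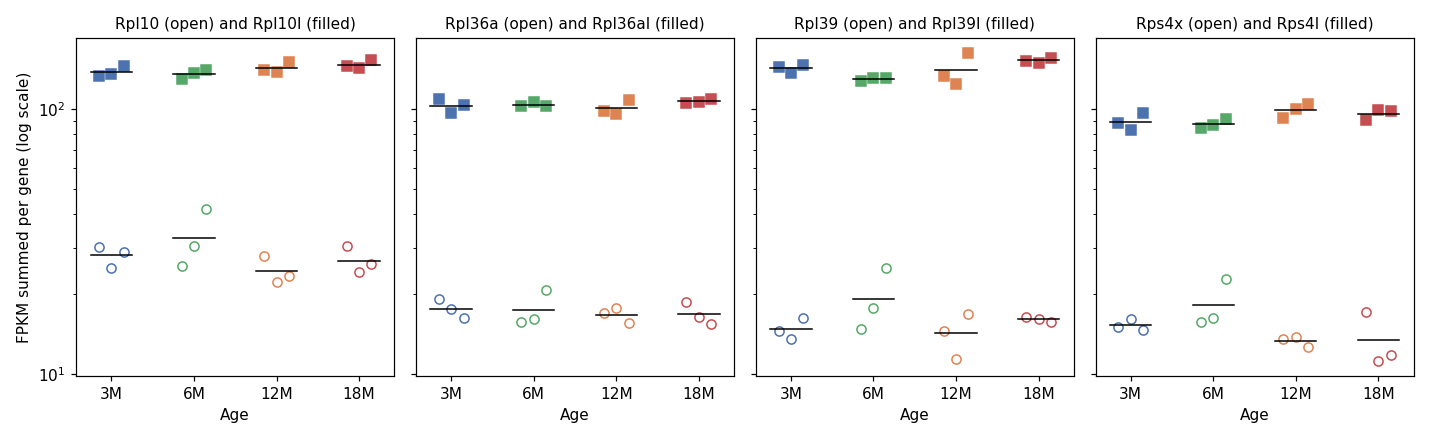
FPKM of each X-linked gene (open circles) and its autosomal copy (filled squares) in each mouse by age, on a log axis, with black lines at the mean of the 3 mice. The copies lie between 82.9 and 162 FPKM and the X-linked genes between 11.3 and 41.8 FPKM at all ages.

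The coding sequences show how far reads of a copy and its relative can be told apart. By GENCODE, Rpl10 and Rpl10l differ at 98 of 645 coding bases (84.8% identity), Rpl36a and Rpl36al at 39 of 321 (87.9%) and Rpl39 and Rpl39l at 23 of 156 (85.3%). No coding base is inserted or deleted in these pairs. Most differences fall on the last base of a codon, with 89 of 98, 35 of 39 and 16 of 23. The longest stretch shared by any transcripts of a pair is 23 nt for Rpl10 and Rpl10l, 24 nt for Rpl36a and Rpl36al and 38 nt for each of Rpl39 and Rpl39l and Rps4x and Rps4l. The coding sequences of the shortest pair are printed whole and those of the other pairs to base 120, where 18 bases differ in each, and capitals mark the differing bases.
Rpl39: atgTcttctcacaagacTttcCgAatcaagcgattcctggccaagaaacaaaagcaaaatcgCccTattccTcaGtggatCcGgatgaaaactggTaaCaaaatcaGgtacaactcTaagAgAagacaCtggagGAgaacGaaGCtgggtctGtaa
Rpl39l: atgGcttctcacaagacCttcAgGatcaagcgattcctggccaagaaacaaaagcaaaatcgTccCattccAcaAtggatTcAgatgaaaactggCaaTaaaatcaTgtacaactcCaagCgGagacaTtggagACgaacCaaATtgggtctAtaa
Rpl10: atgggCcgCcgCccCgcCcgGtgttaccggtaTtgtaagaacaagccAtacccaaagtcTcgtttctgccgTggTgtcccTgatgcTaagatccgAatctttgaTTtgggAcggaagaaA
Rpl10l: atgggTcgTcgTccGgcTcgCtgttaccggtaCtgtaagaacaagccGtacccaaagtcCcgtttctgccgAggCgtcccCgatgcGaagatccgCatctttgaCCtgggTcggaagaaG
Rpl36a: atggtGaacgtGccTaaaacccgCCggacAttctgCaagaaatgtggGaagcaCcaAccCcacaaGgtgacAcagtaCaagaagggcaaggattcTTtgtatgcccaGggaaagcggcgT
Rpl36al: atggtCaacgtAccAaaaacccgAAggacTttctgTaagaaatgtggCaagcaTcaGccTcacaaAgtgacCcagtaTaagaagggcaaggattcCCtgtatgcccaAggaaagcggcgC

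By age, the X-linked genes kept their low levels. Rpl10 was at 30.1, 25.04 and 29.0 FPKM at 3M, at 25.6, 30.4 and 41.8 at 6M, at 28.0, 22.4 and 23.4 at 12M, and at 30.3, 24.2 and 26.0 at 18M. Rpl39 was at 14.6, 13.6 and 16.3 FPKM at 3M, at 14.8, 17.8 and 25.1 at 6M, at 14.6, 11.4 and 16.9 at 12M, and at 16.5, 16.2 and 15.7 at 18M. Rps4x was at 15.1, 16.1 and 14.7 FPKM at 3M, at 15.7, 16.3 and 22.8 at 6M, at 13.5, 13.8 and 12.7 at 12M, and at 17.2, 11.3 and 11.8 at 18M. The ages overlapped for Rpl10 and Rpl39, while the 12M values of Rps4x lay below all its 3M and 6M values and within those of 18M. For each of these genes mouse 3 at 6M had the highest value of all 12 libraries. The same held for Rpl36a, which was at 20.7 FPKM in that library and at 15.4 to 19.1 FPKM in the other 11. In that library the copies were not high, with 140 FPKM for Rpl10l, 130 for Rpl39l, 91.3 for Rps4l and 102 for Rpl36al, and each of the 4 ratios was the lowest of the 12. It is also the library with the highest sums of Leydig, Sertoli, macrophage, and peritubular and endothelial cell markers. The part of these markers in the X-linked levels was not tested.

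Relative to their means the copies varied less, with a coefficient of variation of FPKM of 4.54% to 8.74% over the 12 libraries against 9.46% to 20.4% for the X-linked genes. Rpl10l was at 133, 135 and 145 FPKM at 3M and at 145, 143 and 153 at 18M. Rpl39l was at 144, 136 and 146 FPKM at 3M and at 152, 149 and 156 at 18M, with all 18M values above all 3M values. Rps4l was at 88.3, 82.9 and 96.1 FPKM at 3M and at 90.6, 99.1 and 97.8 at 18M, and Rpl36al at 109, 96.5 and 103 at 3M and at 105, 106 and 109 at 18M. None of the 4 copies passed edgeR's test between 3M and 18M, with log2 fold changes of 0.094 ± 0.0537 (SE) for Rpl10l, 0.10 ± 0.0463 for Rpl39l, 0.11 ± 0.0707 for Rps4l and 0.058 ± 0.0573 for Rpl36al.

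The ratio of a copy to its relative was compared between 3M and 18M by a two-sided exact permutation test on log2 ratios of FPKM in 8 pairs, in which 3 mice against 3 cannot give a p below 0.1. The log2 ratio of Rps4l to Rps4x was 2.54 ± 0.17 (SD, n = 3) at 3M and 2.86 ± 0.40 at 18M (exact permutation p = 0.3, Benjamini-Hochberg adjusted p = 0.48), and the difference of 0.32 ranged from 0.18 without mouse 2 at 18M to 0.55 without mouse 1 at 18M. The log2 ratio of Rpl10l to Rpl10 went from 2.30 ± 0.15 to 2.46 ± 0.18 (exact permutation p = 0.3), that of Rpl36al to Rpl36a from 2.54 ± 0.11 to 2.67 ± 0.16 (exact permutation p = 0.3), and that of Rpl39l to Rpl39 from 3.26 ± 0.090 to 3.24 ± 0.061 (exact permutation p = 0.9). The smallest possible p was reached for Rpl7l1, a relative of Rpl7, whose ratio to Rpl7 was 0.0798, 0.0745 and 0.0890 at 3M and 0.0666, 0.0643 and 0.0716 at 18M (exact permutation p = 0.1, adjusted p = 0.48). In that pair all 18M values were below all 3M values. Of the other autosomal pairs, Rpl22l1 stood at 1.68 to 2.43 times Rpl22, Rps27l at 13.1 to 23.9 times the FPKM left under Rps27, and Rpl3l at 0.00167 to 0.00743 times Rpl3, with adjusted p between 0.48 and 0.9. The ratio of Rps27l leaves out the 222 FPKM under Rps27rt at the place of Rps27, so it does not compare the 2 genes.

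From 3M to 18M, the change of most ribosomal protein genes was small, above 0 for most of them, and not significant for any. Of the 86 genes, 85 had enough reads to be tested, and 0 passed edgeR's quasi-likelihood test at an adjusted p of 0.05, where 0.0685% of all 24809 genes and loci tested passed. The lowest adjusted p of a member was 0.35. At an unadjusted p of 0.05 or less, 11 members were higher and 1 was lower at 18M, 12 of 85, where 12% of all genes tested reached that p. DESeq2 also called 0 members, with 5 at an unadjusted p of 0.05 or less. All shares of genes at an unadjusted p given here are those of edgeR and cannot be set against counts of DESeq2. The fitted log2 fold change was above 0 for 76 of the 85, against 51.5% of all genes, and its median was 0.089, or 1.06-fold, against 0.0068 over all genes tested. It was smaller than 0.2 in size for 82 of the 85 genes, and the SE had a median of 0.0558. In CPM, all 18M mice were above all 3M mice for 24 members, where 9.58% of all genes tested did so, and all were below for 1, where 10% did so. Of 197 other mRNA genes of 600 nt or less, a class described below, 57 were above and 2 below without overlap. Of 655 such genes of 600 to 1000 nt, 179 were above and 16 below.

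**Figure D3:**
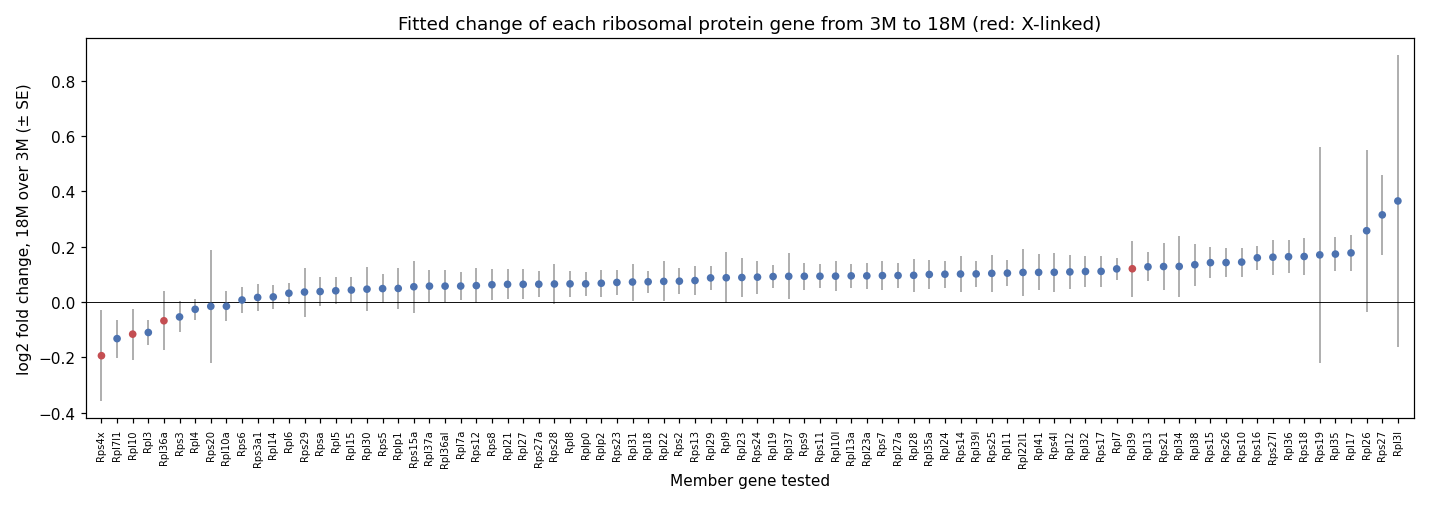
Fitted log2 fold change of tested members from 3M to 18M, ordered by size, with bars of 1 SE from edgeR. Most points lie between 0 and 0.2, 3 of the 4 X-linked genes (red) lie below 0, and the wide bars at the right belong to genes with few reads.

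The smallest p belonged to Rps16, a small-subunit protein named here for that after its values were seen. It was at 94.2, 93.6 and 97.0 FPKM at 3M and at 105, 104 and 109 FPKM at 18M, with a log2 fold change of 0.16 ± 0.0444 and an edgeR adjusted p of 0.35. The 18M values lay above the 3M values, and the 6M and 12M values ran from 84.6 to 113 FPKM around both. Rpl35, a protein at the exit of the tunnel, was at 181, 166 and 185 FPKM at 3M and at 206, 190 and 202 at 18M (log2 fold change 0.17 ± 0.0601, adjusted p = 0.37 by edgeR). Rpl17 was at 91.8, 84.0 and 84.9 FPKM at 3M and at 106, 91.5 and 97.3 at 18M, 0.18 ± 0.0658 higher on the log2 scale without passing the test. For both genes the highest value of all 12 libraries was that of mouse 3 at 12M, with 210 and 107 FPKM.

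The 5 largest fitted rises were those of Rpl3l (0.37 ± 0.53), Rps27 (0.32 ± 0.14), Rpl26 (0.26 ± 0.29), Rpl17 and Rpl35 on the log2 scale, the first 3 of which had a mean of under 100 reads. With the reads of the transcripts that share their span added, Rps27 was at 0.12 and Rpl26 at 0.094. The value of Rpl3l turned to -0.30 without mouse 1 at 18M, that of Rpl26 to -0.084 without mouse 2 at 18M, and that of Rps19, 0.17 ± 0.39, to -0.17 without mouse 1 at 3M. The 5 lowest values were those of Rps4x (-0.19 ± 0.16), Rpl7l1 (-0.13 ± 0.069), Rpl10 (-0.12 ± 0.092), Rpl3 (-0.11 ± 0.044) and Rpl36a (-0.068 ± 0.11), so that 3 of the 4 X-linked genes were among them, while Rpl39 was at 0.12 ± 0.10. Single mice moved these values: without mouse 1 at 18M Rps4x was at -0.41, Rpl10 at -0.21 and Rpl36a at -0.14, and without mouse 2 at 18M Rps4x was at -0.084 and Rpl10 at -0.041. Rpl36a was at -0.0095 without mouse 1 at 3M and at -0.0096 without mouse 3 at 18M, and Rps4x was at -0.11 without mouse 3 at 18M. From the transcripts that match a reference alone, Rpl10 was at 0.16. Rpl3, a large-subunit protein that helps to form the peptidyl transferase center, was at 87.6, 86.4 and 91.1 FPKM at 3M and at 84.9, 80.6 and 79.9 at 18M, and in CPM it was the single member whose mice at 18M were all below those at 3M (adjusted p = 0.41 by edgeR), while in FPKM Rpl7l1 also was.

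The same genes were then read library by library. Taking for each gene its deviation from its own mean over the 12 libraries on the scale of log2(CPM + 0.5), the median over the tested members was 0.14 in mouse 3 at 12M and 0.11 in mouse 3 at 18M, and -0.082 in mouse 2 at 3M and -0.091 in mouse 1 at 6M. In mouse 3 at 18M, 76 of 85 members were above their own mean, in the other mice at 18M 65 and 69, in mouse 3 at 12M 71, and in mouse 1 at 6M 4. Within an age, the median of the members had an SD of 0.068 between mice. The 18M mice, at 0.045, 0.041 and 0.11, lay above every mouse at 3M (0.013, -0.082 and 0.020) and at 6M (-0.091, -0.041 and -0.0093). The 12M mice, at -0.037, -0.070 and 0.14, overlapped all other ages.

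**Figure D4:**
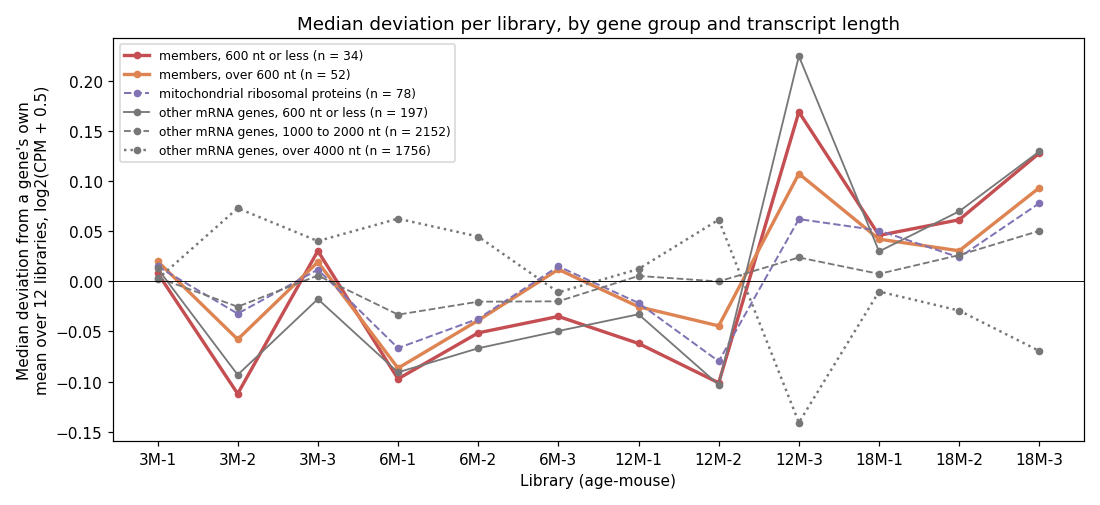
Median deviation of a gene group from each gene's own mean over the 12 libraries, as log2(CPM + 0.5), for members of up to and over 600 nt, mitochondrial ribosomal protein genes and other mRNA genes by transcript length. Mouse 3 at 12M and mouse 3 at 18M lie above 0 for members and other short mRNAs, at 0.17 and 0.13 for members of 600 nt or less, and below 0 for mRNAs over 4000 nt, at -0.14 and -0.070.

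Other short mRNAs moved with the same libraries. Most ribosomal protein mRNAs are short, and 34 of the 86 genes have a reference transcript of 600 nt or less. Between 3M and 18M, the median log2 fold change was 0.11 for the 33 tested members of that length and also 0.11 for 197 other mRNA genes of that length with a mean of 5 FPKM or more. It was 0.073 for the 52 longer members, and 0.097 for other genes of 600 to 1000 nt, 0.032 for those of 1000 to 2000 nt, -0.021 for those of 2000 to 4000 nt and -0.074 for those over 4000 nt. Values above 0 were found for 32 of the 33 short members and for 165 of the 197 other short genes. These length classes were formed after the data were seen, and the part of transcript length in the members' values was not tested.

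Between successive ages, 0 members passed the test in any step by edgeR or by DESeq2. From 3M to 6M, where 0.0686% of all genes tested passed by edgeR, 18 of 85 members had a value above 0 (50.9% of all genes), and the median log2 fold change was -0.035. That count was 10 without mouse 2 at 3M or without mouse 3 at 6M, and 31, 32 and 33 without mouse 1 at 3M, mouse 3 at 3M or mouse 1 at 6M. At an unadjusted p of 0.05 or less, 2 members were lower by edgeR, Rpl13a at -0.22 ± 0.045 and Rpl39l at -0.14 ± 0.046, where 3.92% of all genes reached that p, and 2 members reached it by DESeq2. In CPM, 0 members had all 6M mice above all 3M mice and 6 had all below, where 5.04% and 4.65% of all genes did. From 6M to 12M, where 0.0403% passed, 62 of 85 were above 0 (49.2% of all genes) with a median of 0.065. Without mouse 3 at 12M, 39 were above 0 and the median was -0.0052. Unadjusted, 5 members reached a p of 0.05 by edgeR (7.54% of all genes) and 7 by DESeq2. By edgeR, Rps12 at 0.21 ± 0.065, Rpl7a at 0.16 ± 0.065 and Rps4l at 0.18 ± 0.060 were higher. Rps19 at -0.85 ± 0.27 and Rps4x, the X-linked relative of Rps4l, at -0.44 ± 0.15 were lower. Rps4x was at 16.4, 17.0 and 23.2 CPM at 6M, the last in mouse 3. That mouse had the highest sums of Leydig, Sertoli, macrophage, and peritubular and endothelial markers. The mice of both ages did not overlap for 10 members that were higher and 4 that were lower, where 7.78% and 7.21% of all genes did so. From 12M to 18M, where 0.0201% passed, 66 of 85 were above 0 (49.7% of all genes) with a median of 0.042, or 0.12 without mouse 3 at 12M. An unadjusted p of 0.05 was reached by 2 members by edgeR (3.52% of all genes) and by 3 by DESeq2, and 5 members were higher without overlap and 0 lower, where 4.93% and 4.22% of all genes were. These steps share libraries with each other and with the comparison of 3M and 18M, so their values are given side by side.

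Across all 12 libraries, the slope on age was above 0 for 75 of the 85 members, against 51.3% of all genes tested, with a median of 0.0064 log2 units per month. It was also above 0 for 168 of 197 other mRNA genes of 600 nt or less (median 0.0090). Of 656 other mRNA genes of 600 to 1000 nt, 561 had a slope above 0 (median 0.0074). The part of transcript length in the members' slopes was not tested. edgeR called 0 members, where 0.173% of all 25421 genes and loci tested were called, with 15 members at an unadjusted p of 0.05 or less against 15.2% of all genes, and DESeq2 called 0 with 14 at that p. Rpl7, a large-subunit protein, had the smallest p, with 156, 149 and 157 CPM at 3M, 153, 154 and 155 at 6M, 157, 153 and 163 at 12M, and 165, 167 and 170 at 18M. Its slope was 0.0081 ± 0.0023 log2 units per month, or 0.12 over 15 months (adjusted p = 0.16 by edgeR). The 18M values lay above all others, and Rpl7 was named here for its p after its values were seen as well as by the list of pairs. With mouse 3 at 6M and mouse 3 at 12M both left out, the median slope was 0.0059, with 76 members above 0.

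A gene was taken to change continuously when its mean FPKM over the mice of an age was higher, or lower, at every step. Of 84 members with a mean of 1 FPKM or more at some age, 8 had means that rose throughout, where 7.42% of all 19930 genes and loci at that level did so, and 1 had means that fell, where 6.77% did so. No test stands behind these counts, and with single libraries left out the rising members numbered 2 (without mouse 2 at 12M) to 15 (without mouse 3 at 3M). The rising members were Rpl18, Rpl22, Rpl23, Rpl27a, Rpl38, Rpl7, Rps26 and Rpsa, and the falling member was Rpl7l1. In CPM, 4 members rose, and all 4 were among the 8 (Rpl18, Rpl23, Rpl38 and Rps26). Rpl27a, a large-subunit protein, did so in FPKM alone. Its mean FPKM was 68.8, 70.4, 78.6 and 89.3 at the 4 ages. Its reads were divided among 8 transcripts, and single libraries ran from 55.5 to 104 FPKM with overlapping ages.

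Fitted values of single transcripts spread further than those of their genes. Of the 168 transcripts of the members, 110 match a reference transcript and 58 are assembled variants that share a junction with it, and 42 genes have more than 1 transcript. Between 3M and 18M, 147 transcripts were tested, the fitted log2 change was at least 1 in either direction for 13, and edgeR called 1, where 0.108% of all 54472 transcripts passed. An unadjusted p of 0.05 was reached by 11, against 5.4% of all transcripts. DESeq2 called 7 of them, but it also called many more of all transcripts than edgeR did, as given under the processing. The call of edgeR was lost with each of the 6 libraries left out in turn and with the mouse number as a block.

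The following transcripts had large values with wide errors and were not called. The reference transcript of Rpl27a had a log2 fold change of 2.98 ± 1.253, and an assembled variant of the same gene one of -2.33 ± 2.52, with 94.7% of the gene's reads in mouse 1 at 3M and 0.290% and 1.17% in the other mice at 3M. A variant of Rps6 outside the naming rule, since its mean over the 12 libraries was under 1 CPM, was at 3.60 ± 2.03. Variants of Rpl7a, Rpl10a and Rpl19 were at 1.73 ± 2.01, 1.26 ± 0.45 and 1.03 ± 1.02, and variants of Rps25 and Rpl7 were at -1.80 ± 0.93 and -1.70 ± 0.64, and 2 other variants of Rpl10a at -1.41 ± 1.08 and -1.21 ± 1.51. These values depended on single mice. Without mouse 1 at 3M the variant of Rps25 was at -0.18, without mouse 3 at 3M that of Rpl7 was at -0.83, and without mouse 2 at 3M that of Rpl7a was at 7.10. The variants of Rpl10a below 0 were at -3.41 and -4.28 without mouse 2 at 18M and at -0.89 and -0.73 without mouse 1 at 18M, and the latter was at -0.64 without mouse 3 at 18M. The reference transcript of Rpl27a was at 1.76 without mouse 1 at 18M. Rpl10a, a large-subunit protein, thus had variants at both ends while its summed reads were at -0.015 ± 0.0549.

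Genes that work with the ribosome were compared in the same way. Fau, which encodes a ribosomal protein fused to a ubiquitin-like domain, and Rack1, a scaffold on the small subunit, do not follow the naming rule. From 3M to 18M they were at 0.099 and 0.028 on the log2 scale, and neither was called. The list of 78 mitochondrial ribosomal protein genes had 60 values above 0 and a median of 0.052, with 0 called. Of 8 elongation factors tested 5 were above 0 (median 0.014), of 39 initiation factors 24 (median 0.024), and of 7 other mRNAs with a terminal oligopyrimidine motif 5 (median 0.074). Of 58 ribosome biogenesis factors 23 were above 0 (median -0.013), and of 18 regulators of such mRNAs 5 (median -0.12). None of these lists held a called gene in any comparison by edgeR.

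Among the markers of cell types, 2 genes of Leydig cells passed edgeR's test, Cyp17a1 and Cyp11a1, both enzymes of testosterone synthesis. Their slopes were -0.098 ± 0.0078 (adjusted p = 0.00012) and -0.11 ± 0.013 log2 units per month (adjusted p = 0.0050), and Cyp17a1 was also lower at 12M than at 6M, by a log2 fold change of -0.68 ± 0.062 (adjusted p = 0.035). The summed Leydig markers were at 1018 to 1176 FPKM at 3M and at 704 to 975 FPKM at 18M. From 3M to 18M, 7 of 8 Leydig markers had a value below 0 (median -0.88) and 0 were called, with 7 lower at an unadjusted p of 0.05 or less. Round spermatid markers had 8 of 10 values above 0 from 3M to 18M (median 0.19) and elongating spermatid markers 9 of 10 (median 0.12), while spermatogonial and spermatocyte markers had 2 of 10 and 4 of 10 (medians -0.050 and -0.021), with 0 called by edgeR in each of these lists. Sertoli cell markers had 7 of 9 above 0, macrophage markers 4 of 10, lymphocyte markers 4 of 5, and peritubular and endothelial markers 1 of 10, with 0 called. The part of these marker levels in the values of the ribosomal protein genes was not tested.

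The sequences around the start sites of the members were then compared with those of all start sites. RefSeq start sites (GRCm38.p6) were given for 65 of the 86 genes, with 77 sites in all. A run of 7 or more pyrimidines on the coding strand, from 40 bases before to 20 bases into the transcript, was found at 48 of 77 sites (62.3%), against 35.3% of all 32851 sites of the table. Such a run can lie wholly before the transcript, so these shares do not count terminal oligopyrimidine motifs. The first base was a C at 29.9% of the sites against 16.3%. The sequence CCGGAAG on either strand, from 250 bases before the start to 20 bases into the transcript, was found at 33.8% against 8.08%, and TATAAA at 7.79% against 12.9%. Genes with and without such sequences were not compared for their change with age. Both X-linked genes and their copies were found with and without a pyrimidine run. It was 9 bases long at Rpl39 and at its copy Rpl39l, and absent at Rpl10, Rps4x, Rpl10l and Rpl36al. Relative to the start site, the run began at -21 at Rpl39 and at -26 at Rpl39l, and both runs ended before the transcript. At Rps6 and Rpl35 the run began at -1 and -7 and reached into the transcript. Windows of 60 bases are shown for Rps6, which varied least, and for Rpl35, which was among the largest fitted rises, and for the X-linked Rpl36a, which has no such run, with the longest run in capitals. They lie at chr4:86857348-86857407 on the minus strand, chr2:39005112-39005171 on the minus strand and chrX:134585614-134585673 on the plus strand.
Rps6: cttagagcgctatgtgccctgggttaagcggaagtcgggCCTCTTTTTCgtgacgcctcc
Rpl35: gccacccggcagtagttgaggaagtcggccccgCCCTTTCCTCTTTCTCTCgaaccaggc
Rpl36a: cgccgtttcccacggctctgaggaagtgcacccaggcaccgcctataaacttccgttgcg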

How the data were processed

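Whole testes of C57BL/6 mice (3 mice at each of 4 ages, 12 libraries) were measured by total RNA sequencing after removal of ribosomal RNA, with a kit that does not keep the strand. The authors aligned reads with HISAT2 to mm10 and assembled and quantified transcripts with StringTie 1.3.3b. The deposited counts are estimated counts per transcript that the authors rounded up to whole numbers, and the deposited FPKM values are not normalized between libraries by the authors. StringTie divides reads on shared exons among transcripts by a model, so values of overlapping genes, near-identical copies and single transcripts are uncertain. Depth was 50924104 to 71803379 reads per library.

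Counts were summed per gene symbol over the transcripts that match, lie within, share a junction with or overlap a reference transcript, and per locus otherwise. All genes were tested with edgeR 4.0.16 (R 4.3.3) by the quasi-likelihood F-test, after TMM scaling and filterByExpr and with Benjamini-Hochberg adjustment. Each comparison of ages used its own 6 libraries, and the slope used all 12. Calls needed an adjusted p of 0.05 or less, with no minimum fold. Ratios of FPKM had 0.001 added. DESeq2 1.42.0 was the alternative test. The tests were tried on simulated counts (seed 20210). Python 3.11.15 served for the rest. Sequences came from GENCODE vM21 and a RefSeq start site table.

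Named genes are the X-linked members and 8 listed pairs, the 5 highest and 5 lowest in FPKM, the 5 largest fitted rises and falls from 3M to 18M, any called member, and 5 transcripts each way at 1 CPM or more. Any other member named was chosen after its values were seen. The members, lists and tests were chosen with earlier results of these data known. Protein sequences were not used here. Some results are not reported here, and the plots leave out the gene concerned.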

Additional observations from a re-analysis of the deposited data

How the results depend on the processing

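Members called at the level of genes stayed at 0 under other scalings (library size alone, the size factors of DESeq2), no filter beyond 1 read, DESeq2, the mouse number as a replicate block, reference-matching transcripts alone, all 12 libraries in a fit, each library left out, and 2 alternatives chosen after seeing the data (same-span reads added, and mouse 3 at 6M and at 12M both left out of the slope). Over all genes, counts of calls moved more. From 3M to 18M there were 17 by edgeR, 293 by DESeq2 and 0 with the replicate block, and for the slope 44, 559 and 23, and 11 with reference-matching transcripts and 26 without both mice. From 3M to 6M there were 17, 89 by DESeq2, 4 with the block and 0 with reference-matching transcripts, from 6M to 12M 10, 147 and 2, and from 12M to 18M 5, 53 and 4. The mouse numbers did not pair the mice (correlation of deviations -0.036 to 0.071 over 18 same-numbered pairs), so the block gives no paired value. Among transcripts there were 59, 1719 by DESeq2 and 0 with the block, and members among them were 1, 7 and 0. Leaving out a library gave 0 member transcripts.

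With each library left out in turn, the median log2 change of the members ranged from 0.054 to 0.10 from 3M to 18M (70 to 76 members above 0), from -0.063 to -0.0089 from 3M to 6M (10 to 33 above 0, and 29 with reference-matching transcripts), from -0.0052 to 0.11 from 6M to 12M (39 to 69) and from 0.0065 to 0.12 from 12M to 18M (48 to 76). For the slope it was 0.0050 to 0.0077 (70 to 77). Mouse 3 at 12M gave the -0.0052 and the 39, and 0.12 from 12M to 18M. Continuous rises numbered 2 to 15 and continuous falls 0 to 3, and in CPM 4 and 0.

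From 3M to 18M, the sign turned for Rpl10 with reference-matching transcripts (0.16), Rps19 without mouse 1 at 3M (-0.17), Rplp1 without mouse 2 at 3M (-0.028), Rpl3l without mouse 1 at 18M (-0.30) and Rpl26 without mouse 2 at 18M (-0.084). Of the transcripts, it turned for variant MSTRG.18828.2 of Rpl27a without mouse 1 at 3M (3.14) and for variant MSTRG.3553.2 of Rpl19 without mouse 2 at 18M (-0.59). Of the ratios, it turned for Rpl39l to Rpl39 without mouse 2 at 3M (0.0094), Rpl3l to Rpl3 without mouse 1 at 18M (-0.28), and Rpl22l1 to Rpl22 without mouse 2 at 3M (-0.039) or mouse 3 at 18M (-0.036). Over the libraries left out, these values ranged up to 0.49 for Rps19, 0.76 for Rpl3l, 0.49 for Rpl26 and 1.52 for the variant of Rpl19, down to -5.85 for the variant of Rpl27a, and for the ratios up to 0.79 for Rpl3l and 0.065 for Rpl22l1 and down to -0.074 for Rpl39l. The cause was not tested. There were 3 mice an age, and the SE of a member's change from 3M to 18M had a median of 0.0558.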

Other observations

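In mouse 3 at 6M, Fau was at 196 FPKM, within its range of 181 to 222 FPKM in the other 11 libraries, and Rack1 was at 75.9 FPKM, above its range of 61.9 to 71.3 FPKM there.

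Of the other entries named as retrocopies or pseudogenes of ribosomal protein genes, Rpl37rt was at a mean of 2.55 FPKM, Rpl31-ps12 at 1.86, Rps19-ps3 at 1.63 and Rplp2-ps1 at 1.28 FPKM, while Rps15a-ps4, Rpl14-ps1 and Rps15a-ps6 were at 0.20, 0.11 and 0.062 FPKM.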
